A study of Mus musculus with 18 samples.

Results

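Unsorted tumours from immune-competent mice were set against the cultured tumour cells from which they had grown. The comparison used 6 of the 18 libraries of the study and every gene that reached a normalized count of 10 in 3 or more of them, which left 15078 of 48795 genes (30.9%). The cells were GL261, a mouse glioma line, here carrying green fluorescent protein (GFP). The tumour group held 3 libraries of ex vivo GL261 GFP tumours from C57BL/6 WT mice, digested with collagenase to single cells and sequenced without sorting, so that tumour cells and host cells were read together. The culture group held 3 libraries of the GL261 GFP cells used for injection, grown with 10% fetal bovine serum, which the labels give as sorted for GFP before RNA extraction. Both groups therefore share the line and the GFP label and differ in host tissue, digestion and sorting, and the effects of these cannot be told apart. The study also held sorted GFP+ and GFP- cells of the WT tumours, and unsorted and sorted GFP+ tumours of Pfp/Rag2 -/- mice, with 3 libraries each, which serve below as further readings of the same genes. Mice were taken when symptomatic, 6 of each host, but nothing states if each library came from 1 animal or from several, and p-values here reflect variation among the sequenced libraries alone.

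Gliomas recruit resident microglia and blood-derived macrophages, and smaller numbers of lymphocytes, and they grow around vessels and remaining brain cells. Lymphocytes that recognise tumour antigen release interferon-gamma, which switches on IRF1 and other transcription factors and, through them, the genes that process and present antigen on MHC class I and class II molecules. Type I interferons act through a related complex that includes IRF9 on an overlapping set of antiviral genes.

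Recovered read totals were 19950119 to 20631674 in the WT tumours and 20906929 to 21141662 in culture. Correlations of log2 values across genes between replicates were 0.978 to 0.989 among the tumours and 0.995 among the cultures. The labels were checked with markers of cells that a pure line should lack. The 22 macrophage and microglia genes summed to 46903, 47406 and 51457 normalized counts in the tumours, against 97.3, 102.8 and 121.2 in culture, and Ptprc, the pan-leukocyte phosphatase CD45, had 816, 1254 and 1319 in the tumours, against 1 read in each cultured library. The first WT tumour library stood apart in several lists. Its median neutrophil marker stood at 12.1% of its level in sorted GFP- cells, against 2.69% and 3.32% in the second and the third. By summed counts the neutrophil list was not higher there, at 840.5, against 859.2 and 1039. Only 4 of the 12 neutrophil genes reached the filter. Mitochondrially encoded genes summed to 348982 in the first tumour library, against 177455 and 201912 in the second and the third. The third tumour library alone had a high level of Ttr, the choroid plexus transthyretin, at 5083, against 37.8 and 15.3 in the other tumours and 0 in all cultures.

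Differences ran in both directions in nearly equal numbers. In the tumours 4576 genes were higher (30.3%) and 4228 lower (28%) than in culture at an adjusted p under 0.05 (limma on log2 of the normalized count plus 1), 58.4% of genes in all, and 2676 of the higher and 1159 of the lower genes differed at least 2-fold. The median log2 difference over all genes tested was 0.02. Of the 8804 genes called, 8779 had groups that did not overlap, so the lack of overlap noted below for single called genes is common to nearly all of them. Of the genes tested, 13407 reached the filter in both groups, and of these 3041 were higher and 4107 lower in the tumours. A further 1545 passed through the tumour libraries alone and 126 through the cultures alone; these had to differ and are counted here only as a description. The 1545 genes held 1.16%, 1.3% and 1.59% of all normalized counts in the tumours, against 0.0125% to 0.013% in culture and 10.9% to 11.9% in the sorted GFP- cells. Unsorted tissue mixes cells, so more cells of a type and more RNA per cell cannot be told apart in any of these values.

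The sorted fractions of the WT tumours, which do not enter the comparison, placed the differing genes. This placement depends on the scaling between libraries. After normalization 1 read counted as 1.31 to 1.54 in the GFP- libraries and as 0.921 to 0.958 in the GFP+ libraries. Of the 4576 genes higher in the tumours, 43.6% stood at least 2-fold above GFP+ cells in GFP- cells, 21.4% at least 2-fold above GFP- cells in GFP+ cells, 30.1% lay within 2-fold and 4.87% had means under 10 in both. Among the 4228 lower genes the same shares were 16.9%, 31.1%, 49.2% and 2.84%, and among all genes tested they were 26.1%, 24.6%, 46.2% and 3.02%. The 43.6% rested largely on the 1535 higher genes that passed through the tumour libraries alone, of which 69.6% stood higher in GFP- and 10.3% in GFP+ cells. Among the 3041 higher genes that passed in both groups the shares were 30.5% and 27%, close to those of all genes.

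**Figure D1:**
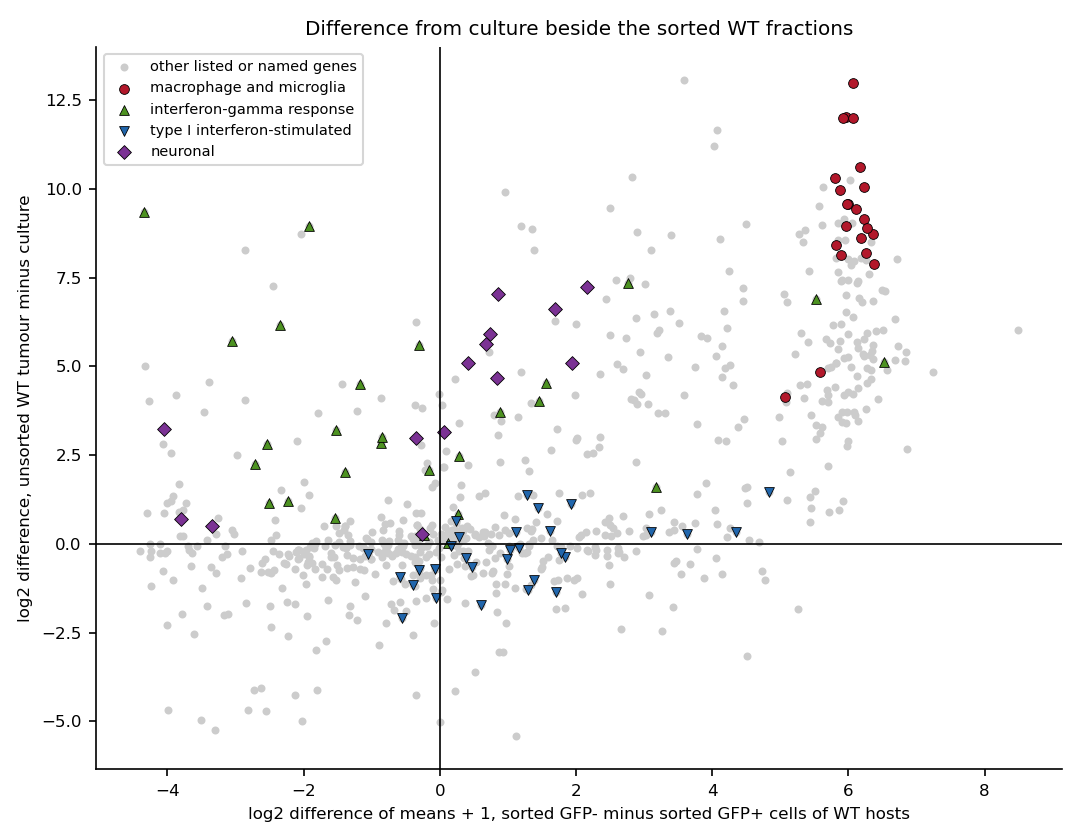
Log2 difference between unsorted WT tumours and culture (vertical axis) against the log2 difference between the mean + 1 in sorted GFP- and in sorted GFP+ cells of WT hosts (horizontal axis), 1 point a gene for the listed or named genes tested. Macrophage and microglia genes lie at the upper right, interferon-gamma response genes reach as high on the left as on the right, and most neuronal genes lie above 0 near the middle.

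Myeloid genes differed widely. C1qa, a chain of the first complement component made by macrophages and microglia, had 5574, 4686 and 5442 normalized counts in the tumours, against 0.945, 0 and 0 in culture. Ctss, the lysosomal protease cathepsin S, had 10974, 8968 and 10609 in the tumours, against 0, 0 and 0.954 in culture. The groups lay far apart for both, and the ratio of Ctss was 32025, with a 95% counting interval of 5788 to 1273969 set by the single cultured read. C1qb and C1qc, the partner chains, were at 0 in all cultures and were at least 1431-fold and at least 1436-fold higher in the tumours, against a floor of 3 reads per library. All 22 macrophage and microglia genes were higher in the tumours (100%, against 30.3% of all genes), with a median log2 difference of 9.29, or 8.78 with genes at 0 in culture set to their bound. Of these 22, however, 19 passed through the tumour libraries alone.

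Apoe, the lipid carrier that macrophages secrete, had 20540, 20156 and 20196 in the tumours, against 56.7, 53.7 and 55.3 in culture, a log2 difference of 8.50 ± 0.06 (SE; adjusted p = 7.19e-10, limma). Neither group varied by more than a few percent. Arg1, the arginase of alternatively activated macrophages, had 4181, 806 and 1345 in the tumours, against 0.945, 0.943 and 0 in culture, so the first tumour library stood well above the other tumours. The ratio was 3355, with a counting interval of 914 to 27278, and without the first tumour library the fitted log2 difference was 9.39, against 10.05 with it. The monocyte-derived list had 13 of 16 members higher (81.25%, against 30.3% of all genes) and 2 lower (12.5%, against 28%). Of the 16, 9 passed through the tumours alone. S100a4, a calcium-binding protein also found in mesenchymal tumour cells, was 1 of the lower ones, at 51.7, 18.9 and 23.5 in the tumours, against 174, 156 and 156 in culture. The other was Fn1, fibronectin, at 7287, 18310 and 15517 in the tumours, against 22295, 23025 and 22773, whose call was lost in several alternatives, with an adjusted p of 0.0513 without the filter. Ccl8, a chemokine that draws monocytes, varied among the tumours. It had 2499, 86.4 and 218, against 0 in all cultures, at least 329-fold higher, and without the first tumour library its fitted log2 difference was 7.11, against 8.50 with it. In all, 16 of the 17 chemokines tested were higher (94.1%, against 30.3% of all genes) and none was lower. Of the 17, 13 passed through the tumours alone. Ccl5, a T cell attractant, was also expressed in culture, with 256, 459 and 556 in the tumours, against 162, 150 and 204 in culture, and its call was lost with all 18 libraries in 1 fit (adjusted p = 0.13).

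Tmem119, a surface protein used as a microglia marker, behaved unlike its list. It had 2598, 13640 and 14211 in the tumours, against 102, 108 and 97.3 in culture, a log2 difference of 6.26 ± 0.59 (SE; adjusted p = 6.19e-05, limma), or 7.07 without the first tumour library. Sorted GFP+ cells averaged 4858 ± 2183 and sorted GFP- cells 3800 ± 1543 (SD, n = 3 each), so GFP- cells did not stand above GFP+ cells. P2ry12, a purine receptor of resting microglia, had 199, 192 and 211 in the tumours, against 16.1, 19.8 and 20 in culture, and averaged 120 ± 25.6 in GFP+ and 1657 ± 255 in GFP- cells. Of the 11 homeostatic microglia genes 9 were higher (81.8%, against 30.3% of all genes) and 1 lower (9.09%, against 28%). Of the 11, 5 passed through the tumours alone. The lower one was Sparc, a secreted matrix protein that many cell types make, with 11592, 8969 and 9763 in the tumours, against 66489, 66590 and 67419 in culture.

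Lymphocyte genes were present in the tumours at low counts. Cd3e, a chain of the T cell receptor complex, had 35.1, 48.6 and 43.5 in the tumours, against 0, 0 and 1.91 in culture. Prf1, the pore-forming protein of killer lymphocytes, had 109, 99 and 139, against 0, 0.943 and 0 in culture. Gzmb, a protease that enters target cells through such pores, had 519, 672 and 808, against 0, 0 and 0.954. In none of these 3 genes did the groups come near each other. Ifng, the interferon-gamma gene itself, had 21.2, 42.3 and 40 in the tumours and no read in any culture, at least 12.2-fold higher. Of the 19 T cell genes tested 18 were higher (94.7%, against 30.3% of all genes) and 1 lower (5.26%, against 28%). All 12 inhibitory and regulatory receptors and all 9 cytotoxic effectors tested, of 11, were higher (100% each). In these 3 lists 17, 7 and 9 genes passed through the tumours alone. The exception among T cell genes was Tcf7, a transcription factor of naive T cells that the line also expressed, with 277, 266 and 275 in the tumours, against 351, 338 and 372 in culture; its call was lost without the third cultured library (adjusted p = 0.0529). Pdcd1, the inhibitory receptor PD-1, had 22.1, 48.6 and 66.2 in the tumours, against 0 in all cultures, at least 16.1-fold higher. B cell genes were close to their detection limit: 6 of 12 were tested, and Igkc, an antibody light chain, had 27.7, 95.4 and 95.8 in the tumours, against 0 in culture.

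Of the NK cell list 7 of 10 genes were tested, and 6 were higher and 1, Itga2, lower. Klrk1, the activating receptor NKG2D of NK and T cells, had 326, 464 and 485 in the tumours and no read in culture, at least 150-fold higher. Of 11 dendritic cell genes tested 9 were higher and none lower, and Itgax, the integrin CD11c, had 825, 1406 and 1581 in the tumours, against 0 in all cultures. Among neutrophil genes only 4 of 12 reached the filter, all 4 higher, and Csf3r, the granulocyte growth factor receptor, had 145, 179 and 202, against 0, 0.943 and 0 in culture. These 3 genes varied by less than 2-fold among the tumours and were nearly absent from culture. Hbb-bs, a beta globin, varied more, with 480, 202 and 88 in the tumours, against 0 in all cultures, and it shares sequence with Hbb-bt. All 4 tested erythrocyte genes of 7 were higher. The shares called higher were 85.7% (NK), 81.8% (dendritic) and 100% (neutrophil and erythrocyte), against 30.3% of all genes. However, 5 of the 7 NK, 8 of the 11 dendritic, all 4 neutrophil and all 4 erythrocyte genes passed through the tumours alone and had to be higher. Without the first tumour library the fitted log2 difference of Hbb-bs was 7.07, and without the third it was 8.29, against 7.68 with all.

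Set against the sorted GFP- cells, these levels were small shares. All such shares depend on the scaling between libraries. After normalization 1 read counted as 1.31 to 1.54 in the GFP- libraries, against 0.871 to 0.923 in the unsorted WT tumours, at similar read totals. The median T cell marker stood at 2.95% ± 1.17 of its GFP- mean in the unsorted tumours, the median cytotoxic marker at 2.97% ± 0.534 and the median macrophage marker at 6.33% ± 0.49 (SD, n = 3 each). Endothelial markers stood at 84.4% ± 16.4 and pericyte and fibroblast markers at 54.1% ± 24.6. The pericyte share was 25.8% in the first tumour library, against 67.6% and 68.9% in the others. The macrophage share in unsorted Pfp/Rag2 -/- tumours was 1.89% ± 0.166 and the endothelial share 83.3% ± 22.4. The homeostatic microglia share was near equal in the 2 hosts, at 12.8% ± 0.753 in WT and 12.1% ± 1.07 in Pfp/Rag2 -/- tumours. With shares taken from summed counts the endothelial value in WT tumours was 42.8%.

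**Figure D2:**
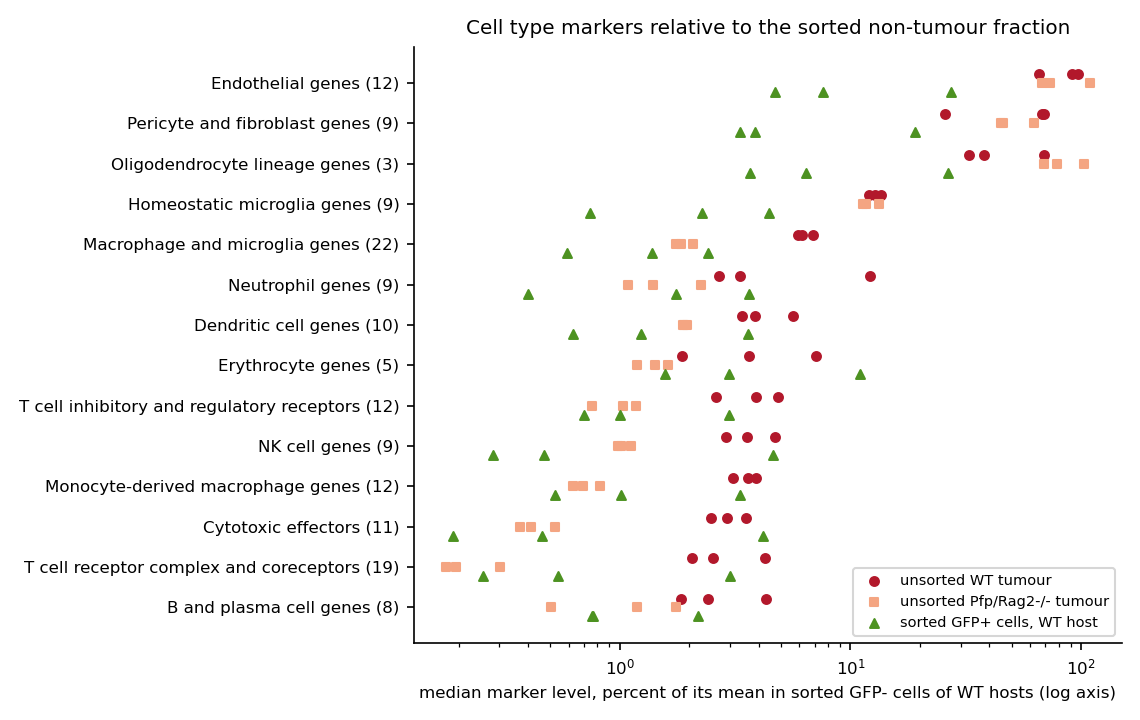
Median marker level of each cell type list, in percent of the marker's mean in sorted GFP- cells of WT hosts (log axis), 1 point a library, for unsorted WT tumours, unsorted Pfp/Rag2 -/- tumours and sorted GFP+ cells of WT hosts; numbers in brackets are markers used. Endothelial markers lie at 65.8% to 96.6% in unsorted WT tumours, and T cell markers at 2.05% to 4.27%.

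Antigen presentation genes were higher in the tumours almost throughout. H2-Eb1, a class II beta chain, had 8024, 15231 and 14906 in the tumours, against 0, 1.89 and 0 in culture, and H2-Aa, its alpha-chain counterpart in the other class II molecule, had 7775, 12754 and 13735, against 3.78, 1.89 and 1.91. The ratio of H2-Eb1 was 20241, with a counting interval of 5604 to 167187. Both genes were near 0 in every culture, and the first tumour library was the lowest of the tumours for both. Ciita, the master regulator of class II genes, had 725, 1591 and 1421, against 1.89, 0.943 and 1.91 in culture. All 11 class II genes were higher (100%, against 30.3% of all genes), with a median log2 difference of 8.72. Of the 11, 7 passed through the tumours alone. H2-DMa, which loads peptide onto class II, was expressed in both groups, at 1960, 2896 and 3015 in the tumours, against 146, 138 and 141 in culture (log2 difference 4.18 ± 0.16 SE, adjusted p = 7.71e-07, limma).

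Class II genes were not restricted to the GFP- fraction. H2-Eb1 averaged 9296 ± 1487 in sorted GFP+ cells and 112200 ± 6884 in GFP- cells (SD, n = 3 each), and the difference of unsorted tumours from GFP+ cells did not pass the test (log2 difference 0.41 ± 0.26 SE, adjusted p = 0.305, limma). Without the first tumour library it was 0.71 and passed (adjusted p = 0.0202). Macrophage genes differed more between these samples than class II genes did. Of 22 macrophage and microglia genes, 19 were higher in unsorted tumours than in GFP+ cells, with a median log2 difference of 2.24. Of 11 class II genes 2 were higher, with a median of 0.76. As a percentage of the GFP- mean, the median macrophage marker reached 6.33% in unsorted tumours, against 1.46% ± 0.92 in GFP+ cells. The part of macrophages in the class II level was not tested.

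Class I genes were already expressed in culture and were higher still in the tumours. H2-K1, a classical class I heavy chain, had 31717, 35072 and 36029 in the tumours, against 4184, 4333 and 4567 in culture, and Psmb9, an interferon-induced proteasome subunit, had 4601, 4549 and 4693, against 319, 299 and 308. The libraries of each group lay close together for both, and Psmb9 had a log2 difference of 3.90 ± 0.06 (SE; adjusted p = 4.63e-08, limma). Tap1, the peptide transporter, had 9637, 12204 and 11970 in the tumours, against 2466, 2425 and 2634 in culture. Of 22 class I genes 20 were higher (90.9%, against 30.3% of all genes) and 1 lower (4.55%, against 28%). The lower one was Calr, a chaperone, at 14354, 17992 and 17271 in the tumours, against 24108, 20964 and 20776 in culture. Its call was lost with quantile normalization (adjusted p = 0.0614, limma) and without the first cultured library (adjusted p = 0.0725, limma). Here 21 of the 22 passed the filter in both groups, and the median log2 difference was 2.25. H2-Q6 and H2-Q7 belong to a family of near-identical genes, and their single values are uncertain.

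Genes that follow interferon-gamma and genes that follow type I interferon parted. Of 28 interferon-gamma response genes tested, 26 were higher (92.9%, against 30.3% of all genes) and none was lower, with a median log2 difference of 2.93, and 22 of the 28 passed the filter in both groups. Of 30 type I interferon-stimulated genes, all of which passed in both groups, 6 were higher (20%) and 13 lower (43.3%), with a median of -0.28. The shares of all genes were 30.3% higher and 28% lower. Both lists were chosen with earlier results of these data known.

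**Figure D3:**
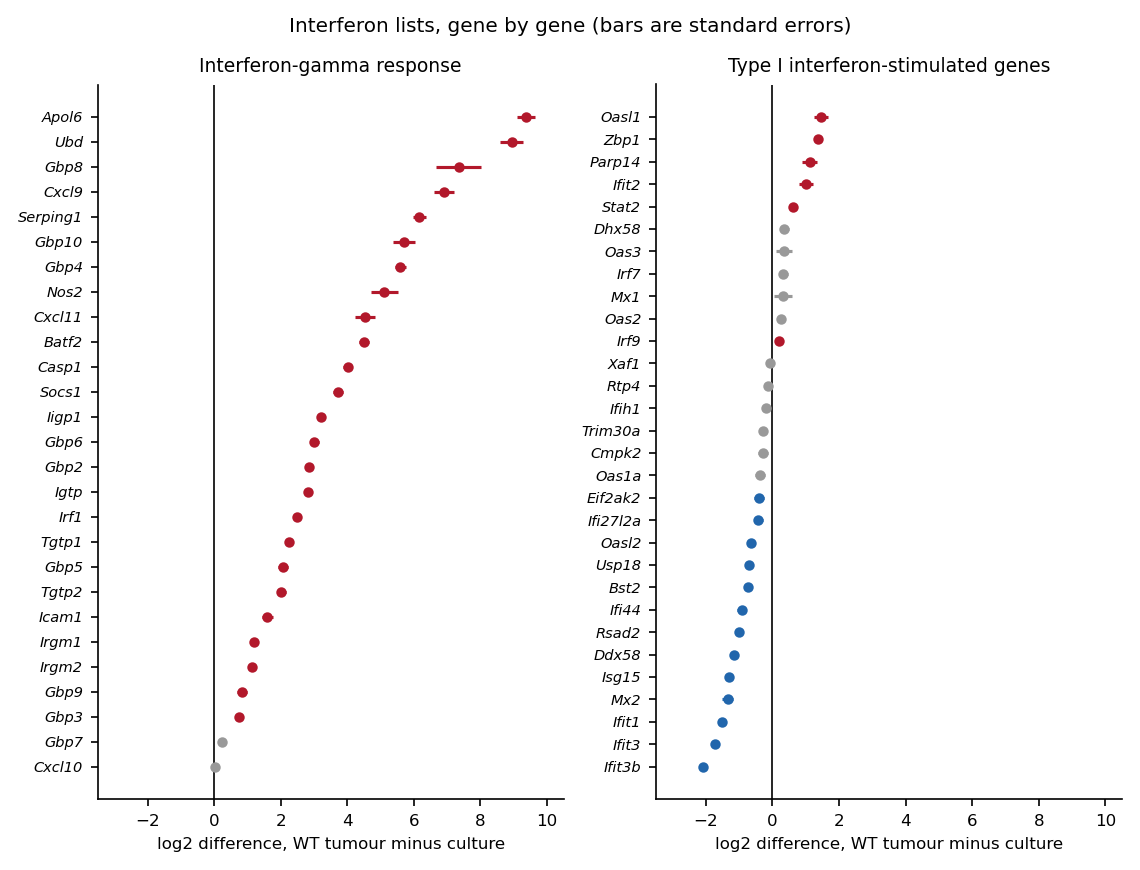
Log2 difference between unsorted WT tumours and culture for each tested gene of the interferon-gamma response list (left) and of the type I interferon-stimulated list (right); points are fitted differences, bars are standard errors, and grey points did not reach an adjusted p of 0.05. Of the interferon-gamma list 1 gene is not drawn in the left panel, where 25 of the 27 genes drawn are coloured and lie to the right of 0, and in the right panel the coloured genes lie on both sides, 13 of them on the left.

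Gbp4, a guanylate-binding protein that interferon-gamma induces, had 4956, 7273 and 7670 in the tumours, against 140, 121 and 143 in culture, a log2 difference of 5.59 ± 0.17 (SE; adjusted p = 2.95e-07, limma). Irf1, a transcription factor that interferon-gamma induces, had 7081, 8120 and 7468 in the tumours, against 1352, 1373 and 1331 in culture (log2 difference 2.48 ± 0.07). Every tumour library lay above every culture for both genes. Apol6, an apolipoprotein L family member, went to 1041, 1724 and 1735 in the tumours, against 0.945, 1.89 and 0.954 in culture, and in the sorted fractions it averaged 1109 ± 103 in GFP+ and 54 ± 45.7 in GFP- cells. Serping1, the C1 inhibitor, had 891, 1216 and 1489 in the tumours, against 14.2, 16 and 16.2 in culture, and likewise stood higher in GFP+ cells (898 ± 76) than in GFP- cells (176 ± 79.2). These members had most of their sorted signal in the tumour fraction. Cxcl9, a chemokine that recruits T cells, had 454, 1051 and 792 in the tumours, against 4.72, 5.66 and 4.77 in culture, while its relative Cxcl10 had 2934, 4010 and 2983, against 3369, 3140 and 3194. The groups overlapped for Cxcl10 (log2 difference 0.02 ± 0.12, adjusted p = 0.907, limma).

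Ifit3b, an antiviral tetratricopeptide protein, had 445, 451 and 451 in the tumours, against 1930, 1889 and 1924 in culture, a log2 difference of -2.09 ± 0.06 (SE; adjusted p = 3.2e-07, limma). Ifit1, of the same family, had 2110, 1627 and 1688, against 5486, 4883 and 5198 in culture (log2 difference -1.53 ± 0.11). Isg15, a ubiquitin-like modifier, had 2697, 2471 and 2927, against 6991, 6509 and 6582 in culture. The cultured libraries stood above all tumours for these 3 genes. Among the 6 higher members were Zbp1, a nucleic acid sensor, at 2974, 2114 and 2432 in the tumours, against 1004, 921 and 956 in culture, and Oasl1, at 228, 328 and 396, against 126, 106 and 102. Ifit3 and Ifit3b are near-identical copies, as are several Gbp, Tgtp and Oas genes, so the split of reads within these families is uncertain.

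The promoters shown come from the genes with the 3 largest differences in each interferon list among those considered. Considered were genes that average 100 or more in both groups and have an entry in the sequence table. Genes on 1 chromosome were left out of this choice. Ifit3b, 1 of the genes chosen, is left out as a near copy of Ifit3 with 2 ISRE matches as well. They are given because the lists that parted are known to be read through related but different motifs. Sequences are from RefSeq on GRCm38.p6, 250 bases before to 50 bases after the start, on the strand of the gene, and capitals mark matches to the GAS motif TTCNNNGAA or, on either strand, the ISRE motif, which is GAAA, any 2 bases and GAAA. Gbp2 (chr3:142620413-142620712, plus strand), Igtp (chr11:58199306-58199605, plus strand) and Irf1 (chr11:53769764-53770063, plus strand) were higher in the tumours, and Ifit3 (chr19:34583279-34583578, plus strand) and Ifit1 (chr19:34640639-34640938, plus strand) lower.
Gbp2: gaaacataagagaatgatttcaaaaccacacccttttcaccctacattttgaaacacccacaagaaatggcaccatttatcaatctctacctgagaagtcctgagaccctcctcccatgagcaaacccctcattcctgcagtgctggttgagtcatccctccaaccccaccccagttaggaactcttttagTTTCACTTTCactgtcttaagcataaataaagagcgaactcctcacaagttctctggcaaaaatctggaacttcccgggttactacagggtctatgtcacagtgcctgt
Igtp: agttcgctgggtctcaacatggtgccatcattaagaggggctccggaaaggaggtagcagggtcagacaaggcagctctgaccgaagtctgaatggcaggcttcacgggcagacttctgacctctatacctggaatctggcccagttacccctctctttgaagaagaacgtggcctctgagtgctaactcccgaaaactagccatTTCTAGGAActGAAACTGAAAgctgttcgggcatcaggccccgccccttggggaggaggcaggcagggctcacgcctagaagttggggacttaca
Irf1: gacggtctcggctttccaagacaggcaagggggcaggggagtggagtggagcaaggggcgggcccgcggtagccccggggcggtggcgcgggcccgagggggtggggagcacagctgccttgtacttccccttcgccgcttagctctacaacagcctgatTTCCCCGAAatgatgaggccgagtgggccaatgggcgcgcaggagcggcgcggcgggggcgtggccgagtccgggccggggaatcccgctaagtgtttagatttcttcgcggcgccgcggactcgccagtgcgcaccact
Ifit3: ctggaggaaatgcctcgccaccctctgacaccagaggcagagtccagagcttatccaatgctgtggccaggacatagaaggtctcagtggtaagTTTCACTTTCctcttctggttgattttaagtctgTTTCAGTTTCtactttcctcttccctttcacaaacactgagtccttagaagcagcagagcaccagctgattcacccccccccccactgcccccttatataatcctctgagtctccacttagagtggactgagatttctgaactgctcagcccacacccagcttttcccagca
Ifit1: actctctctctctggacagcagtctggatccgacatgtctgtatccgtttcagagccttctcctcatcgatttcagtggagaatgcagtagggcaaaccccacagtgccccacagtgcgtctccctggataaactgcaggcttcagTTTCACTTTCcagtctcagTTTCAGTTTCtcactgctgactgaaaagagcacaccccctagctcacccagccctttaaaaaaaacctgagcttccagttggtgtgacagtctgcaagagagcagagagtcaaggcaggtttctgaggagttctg
Gbp2 holds 1 ISRE match, Igtp 1 GAS and 1 ISRE match, Irf1 1 GAS match, and Ifit3 and Ifit1 hold 2 ISRE matches each and no GAS match; the matches shown do not overlap. A GAS match lay in 8 of the 16 interferon-gamma response promoters in the table (50%), in 4 of 21 type I promoters (19%) and in 8% of 19584 promoters. An ISRE match lay in 11 of 16 (68.8%), in 13 of 21 (61.9%) and in 3.41% of all. These matches describe letters in the window and say nothing of binding. Gbp2 had 13239, 13724 and 13241 in the tumours, against 1830, 1763 and 1998 in culture. Igtp had 22234, 21785 and 21727 in the tumours, against 3483, 2892 and 2981, but it overlaps Irgm2 on chromosome 11, and reads of the pair may be shared.

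The class II promoters are shown for the CCAAT box, which the class II regulatory complex uses, on either strand (CCAAT or ATTGG, in capitals). H2-Eb1 lies at chr17:34305617-34305916 on the plus strand and H2-Aa at chr17:34287774-34288073 on the minus strand.
H2-Eb1: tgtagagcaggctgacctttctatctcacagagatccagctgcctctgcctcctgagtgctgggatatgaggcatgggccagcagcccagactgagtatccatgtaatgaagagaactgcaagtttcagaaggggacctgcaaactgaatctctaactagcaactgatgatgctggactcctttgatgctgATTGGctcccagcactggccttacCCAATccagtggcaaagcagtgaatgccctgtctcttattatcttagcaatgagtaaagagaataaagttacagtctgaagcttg
H2-Aa: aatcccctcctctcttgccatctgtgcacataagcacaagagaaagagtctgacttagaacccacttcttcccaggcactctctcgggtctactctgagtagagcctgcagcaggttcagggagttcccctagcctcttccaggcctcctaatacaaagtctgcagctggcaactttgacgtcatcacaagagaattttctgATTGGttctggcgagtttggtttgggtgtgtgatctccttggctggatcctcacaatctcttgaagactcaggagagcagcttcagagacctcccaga
H2-Eb1 holds 2 matches and H2-Aa 1. A match lay in 7 of the 8 class II promoters in the table (87.5%) and in 38.3% of all promoters.

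**Figure D4:**
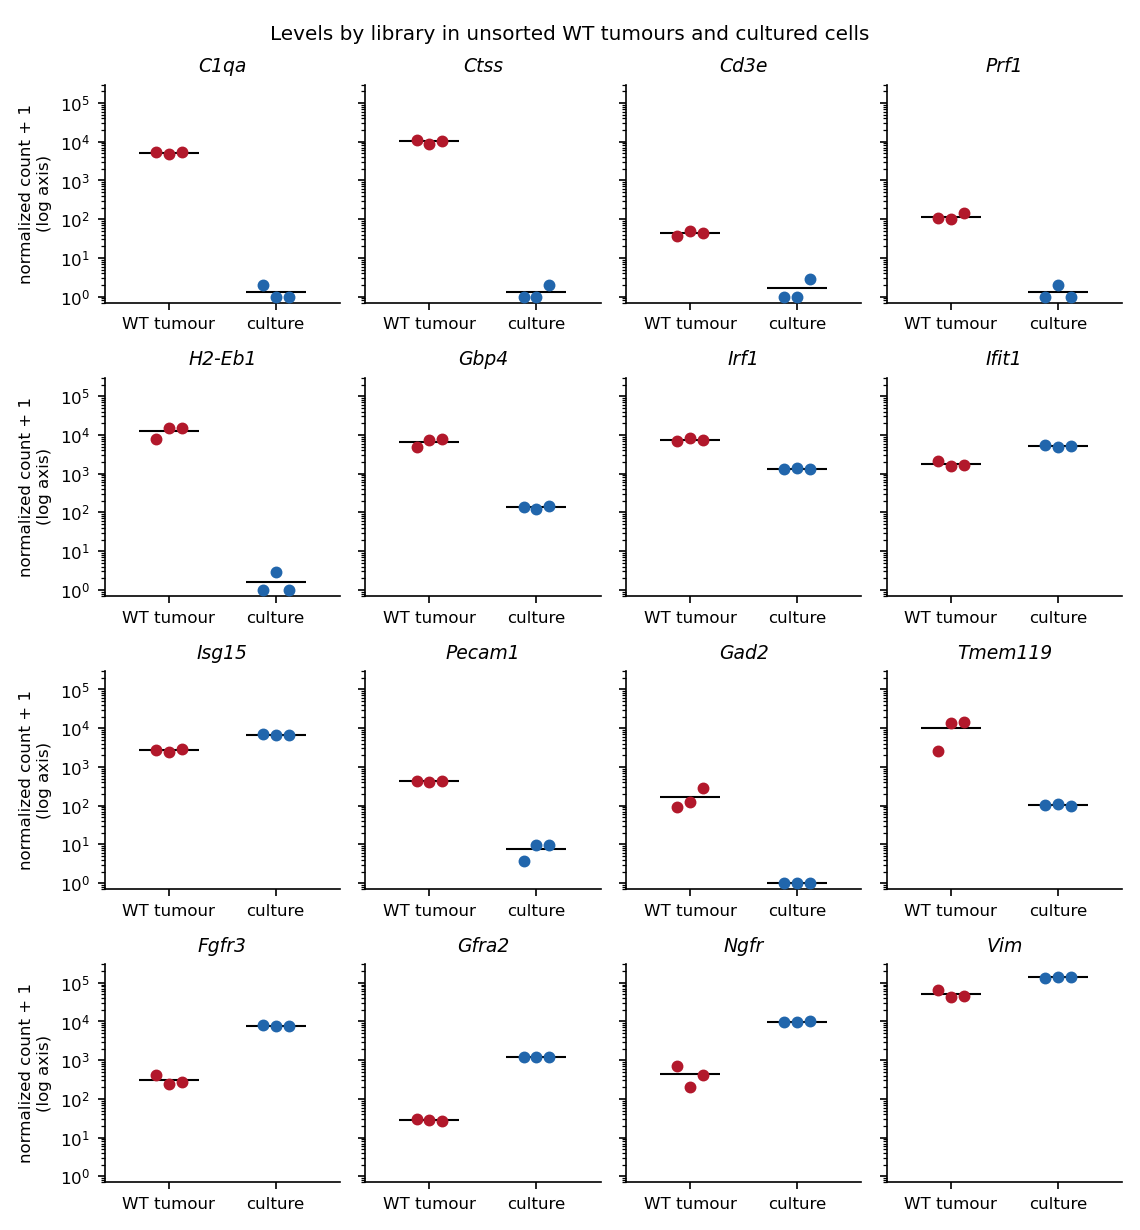
Normalized count + 1 (log axis) of 16 genes in each library, with unsorted WT tumours on the left and culture on the right of each panel; lines are means of 3 libraries. Myeloid, T cell and class II genes lie near 1 in culture, Ifit1 and Isg15 lie lower in the tumours, and in the bottom row Fgfr3, Gfra2, Ngfr and Vim lie higher in culture.

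Checkpoint ligands and evasion genes included members on both sides. Cd274, the checkpoint ligand PD-L1, had 1130, 1621 and 1537 in the tumours, against 105, 83.9 and 85.9 in culture (log2 difference 3.94 ± 0.16 SE, adjusted p = 9.94e-07, limma). Tgfb2, an immunosuppressive growth factor of gliomas, had 90.4, 81 and 85.3 in the tumours, against 1091, 1015 and 1051 in culture (log2 difference -3.61 ± 0.09), and Nt5e, the adenosine-forming enzyme CD73, had 95, 125 and 144, against 224, 232 and 253. In this list 14 of 23 were higher (60.9%, against 30.3% of all genes) and 7 lower (30.4%, near the 28% of all genes). However, 8 of the 23 passed through the tumours alone and had to be higher. Of the 15 that passed in both groups, 6 were higher and 7 lower. All 15 complement genes tested were higher (100%, against 30.3% of all genes), 9 having passed through the tumours alone. C4b, which the line itself expressed, had 12247, 17793 and 19198 in the tumours, against 620, 735 and 783 in culture, and it averaged 18473 ± 699 in sorted GFP+ cells.

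Vessel and brain cell genes were also higher. Cldn5, the tight-junction protein of brain endothelium, had 702, 724 and 664 in the tumours and no read in culture, at least 245-fold higher, and Kdr, the VEGF receptor of endothelium, had 268, 490 and 429, against 0 in all cultures, at least 139-fold higher. Col4a1, a basement membrane collagen, had 1843, 3075 and 2412 in the tumours, against 13.2, 15.1 and 13.4 in culture. Of 18 endothelial genes 15 were higher (83.3%, against 30.3% of all genes) and 3 lower (16.7%, against 28%). The lower ones were Flt1, Ly6c1 and Ramp2. Of the 18, 11 passed through the tumours alone. Flt1, a VEGF receptor that the line expressed, was lower, at 1515, 1835 and 1556, against 2074, 2211 and 2164 in culture. With all 18 libraries in 1 fit the calls of Ly6c1 (adjusted p = 0.0537) and Ramp2 (adjusted p = 0.238) were lost. Rgs5, a pericyte gene, had 266, 710 and 877, against 0.945, 0 and 0 in culture. Mobp, a myelin protein gene, had 982, 694 and 1265 in the tumours and no read in culture, whereas Mbp, the myelin basic protein gene, had 2976, 2272 and 3836, against 26772, 23647 and 24008 in culture. The oligodendrocyte list thus had 8 of 13 genes higher (61.5%, against 30.3% of all genes) and 4 lower (30.8%, near the 28% of all genes), 3 of the 13 having passed through the tumours alone.

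Several neuronal and astrocyte genes were found in unsorted tissue and scarcely in either sorted fraction. Gad2, an enzyme of inhibitory neurons, had 93.2, 126 and 286 in the tumours and no read in culture (at least 59.3-fold higher), and it averaged 0 in sorted GFP+ and 3.46 in sorted GFP- cells. Snap25, of the synaptic release machinery, had 160, 118 and 349 in the tumours, against 0, 0 and 1.91 in culture, with means of 6.82 in GFP+ and 13.1 in GFP- cells. Aqp4, the water channel of astrocyte endfeet, had 314, 511 and 707, against 0, 0.943 and 0.954 in culture, with means of 15.4 ± 23.4 in GFP+ and 41.8 ± 23.7 in GFP- cells (SD, n = 3 each). The unsorted tumours lay above the mean of either sorted fraction for these 3 genes, and against GFP+ cells Gad2, with no read there, was at least 59.6-fold higher (adjusted p = 0.00194), and the log2 differences were 5.07 for Snap25 (adjusted p = 0.0101) and 6.14 for Aqp4 (adjusted p = 0.0129, limma). The third tumour library was the highest for all 3, and without it the calls of Snap25 (adjusted p = 0.0518) and Aqp4 (adjusted p = 0.0633) were lost. In all, 12 of 14 neuronal genes were higher than in culture (85.7%, against 30.3% of all genes) and none was lower, 7 having passed through the tumours alone. The astrocyte list was mixed, with 5 of 11 higher (45.5%) and 4 lower (36.4%, against 28% of all genes), 3 of the 11 having passed through the tumours alone. Xist, the transcript of the inactive X chromosome of female cells, had 882, 1376 and 1670 in the tumours, against 3.78, 10.4 and 7.63 in culture, and averaged 24875 ± 3376 in GFP- cells. Y-linked Ddx3y had no read in either group.

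Genes far lower in the tumours included several receptors. Fgfr3, a fibroblast growth factor receptor, had 417, 243 and 271 in the tumours, against 8288, 7418 and 7428 in culture, a log2 difference of -4.67 ± 0.19 (SE; adjusted p = 8.84e-07, limma). Ngfr, the p75 neurotrophin receptor, had 696, 202 and 416, against 9646, 9926 and 10057 in culture (log2 difference -4.67 ± 0.38). Gfra2, a co-receptor for neurturin, had 28.6, 27.9 and 25.2, against 1208, 1235 and 1185 (log2 difference -5.42 ± 0.11). For all 3 receptors the cultured libraries stood more than 10-fold above every tumour library. Genes of other kinds were as far apart. Cfap100, a cilium-associated gene, had 10.2, 17.1 and 20.9 in the tumours, against 524, 531 and 497 in culture, and Papln, a secreted matrix glycoprotein, had 88.6, 138 and 114, against 3354, 3560 and 3617. Crabp1, a retinoic acid binding protein, had 41.5, 14.4 and 12.2, against 724, 799 and 817, and Entpd2, an ectonucleotidase, had 42.4, 18.9 and 21.8, against 721, 685 and 704.

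Fgfr3 was also low in the sorted tumour cells. It averaged 518 ± 197 in sorted GFP+ cells, and the difference of the unsorted tumours from them did not pass the test (log2 difference -0.70 ± 0.34, adjusted p = 0.191, limma); without the third GFP+ library it was -1.06 (adjusted p = 0.0412).

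Collagen genes included members on both sides. Col6a2 and Col6a1, chains of the microfibrillar collagen VI, were low in the tumours: Col6a2 had 84.9, 90.9 and 112, against 3092, 3032 and 3163 in culture, and Col6a1 had 431, 414 and 486, against 7508, 7318 and 7276. Col5a1, of a fibrillar collagen, had 138, 182 and 186, against 3164, 3241 and 3287. Col4a1 and Col4a2 were the opposite, as given above for Col4a1. Of 18 collagens 6 were higher (33.3%, near the 30.3% of all genes) and 8 lower (44.4%, against 28%). However, 3 of the 18 passed through the tumours alone. Of the 15 that passed in both groups, 3 were higher and 8 lower. Timp3, a matrix-bound protease inhibitor, had 647, 981 and 1029 in the tumours, against 15117, 14803 and 15595 in culture, and Mmp2, a gelatinase, had 2250, 2672 and 3210, against 18675, 19474 and 19730. Mmp13, a collagenase, had 1662, 730 and 641 in the tumours, against 0, 0.943 and 0 in culture. Among 15 integrins 9 were lower (60%, against 28% of all genes) and 4 higher. Itga2, a collagen receptor subunit that NK cells also carry, had 28.6, 69.3 and 67 in the tumours, against 904, 904 and 964 in culture, and Itgb3, a vitronectin receptor subunit, had 154, 141 and 136, against 1254, 1274 and 1381. Vim, the mesenchymal intermediate filament, had 63598, 42942 and 44490 in the tumours, against 130092, 140335 and 143550 in culture, and Cdh2, N-cadherin, had 1333, 1580 and 1654, against 9341, 8569 and 8665.

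Of 14 pericyte and fibroblast genes tested, 11 were higher (78.6%, against 30.3% of all genes) and 2 lower (14.3%, against 28%). Of the 14, 7 passed through the tumours alone. Acta2, the contractile actin of mural cells, had 179, 319 and 185 in the tumours, against 21.7, 9.43 and 8.59 in culture, while Col1a1, of fibrillar collagen I, had 354, 450 and 319, against 2138, 2230 and 2303, and Pdgfra, a receptor of fibroblasts and glial progenitors, had 1708, 1730 and 1802, against 2786, 2628 and 2687. The call of Pdgfra was lost with all 18 libraries in 1 fit (adjusted p = 0.178). The groups did not overlap for these 3 genes. Of 23 matrix glycoprotein, proteoglycan and crosslinker genes 10 were higher (43.5%, against 30.3% of all genes) and 11 lower (47.8%, against 28%). However, 3 of the 23 passed through the tumours alone. Of the 20 that passed in both groups, 7 were higher and 11 lower. Of 20 matrix proteases and inhibitors 7 were higher (35%, near the 30.3% of all genes) and 9 lower (45%, against 28%). However, 5 of the 20 passed through the tumours alone and had to be higher. Of the 15 that passed in both groups, 2 were higher and 9 lower. Of 24 growth factor and receptor kinase genes 10 were higher (41.7%, against 30.3% of all genes) and 12 lower (50%, against 28%). However, 4 of the 24 passed through the tumours alone. Of the 20 that passed in both groups, 6 were higher and 12 lower. Erbb2, a receptor kinase of the EGF receptor family, had 388, 390 and 329 in the tumours, against 1475, 1469 and 1465 in culture (log2 difference -1.99 ± 0.09). ERK feedback genes report growth factor signalling. Of 16 such genes 9 were lower (56.2%, against 28% of all genes) and 2 higher (12.5%, against 30.3%). Of the 16, 1 passed through the tumours alone. Dusp4, an ERK phosphatase, had 560, 513 and 411 in the tumours, against 1846, 1740 and 1627 in culture.

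Neural genes of the line itself moved both ways. Kit, the stem cell factor receptor, had 4631, 7420 and 5932 in the tumours, against 402, 476 and 490 in culture (log2 difference 3.69 ± 0.17 SE, adjusted p = 1.58e-06, limma). Dll1, a Notch ligand, had 679, 603 and 608, against 22.7, 24.5 and 29.6, and Pcdh15, a protocadherin, had 2363, 5119 and 3697, against 87.8, 118 and 122. All 3 stood higher in sorted GFP+ than in GFP- cells, with Dll1 at 515 ± 145 and 48.4 ± 42.7. Nes, the progenitor filament nestin, was lower, at 5561, 3950 and 4304 in the tumours, against 17064, 14930 and 14236 in culture. Sox2, a stem cell transcription factor, had 7201, 6203 and 5866 in the tumours, against 6259, 6434 and 6533, and its groups overlapped (log2 difference -0.00 ± 0.09, adjusted p = 0.986, limma). The list of neural progenitor and glioma genes had 12 of 24 members higher (50%, against 30.3% of all genes) and 9 lower (37.5%, against 28%). However, 3 of the 24 passed through the tumours alone. Of the 21 that passed in both groups, 9 were higher and 9 lower.

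Division genes were moderately lower. Of 23 mitosis genes 16 were lower (69.6%, against 28% of all genes) and none was higher, with a median log2 difference of -0.38. Kif20a, a kinesin of cytokinesis, had 1590, 2147 and 1984 in the tumours, against 3328, 3421 and 3264 in culture (log2 difference -0.82 ± 0.11 SE, adjusted p = 0.000456, limma), and Ccnb2, a mitotic cyclin, had 1907, 1658 and 1584, against 2388, 2743 and 2730. The cultured libraries lay above all tumours for both. Of 28 DNA replication genes 9 were higher (32.1%) and 6 lower (21.4%), near the shares of all genes (30.3% and 28%), with a median of 0.01. Rfc3, a subunit of the clamp loader, had 1284, 1351 and 1254 in the tumours, against 837, 813 and 831 in culture, and Pole, a replicative polymerase, had 1043, 1554 and 1358, against 2155, 2226 and 2067. Of 17 cyclin, CDK inhibitor and MYC genes 10 were lower (58.8%, against 28% of all genes) and none was higher. Ccnd2, cyclin D2, had 5273, 4332 and 5434, against 18107, 18382 and 18542 in culture, and Myc had 3189, 2443 and 2421, against 4890, 5626 and 5629.

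Metabolic lists differed in direction. Of 22 cholesterol synthesis and uptake genes 15 were lower (68.2%, against 28% of all genes) and none higher, with a median of -0.86. Efflux and lipid-handling genes were higher in 8 of 12 cases (66.7%, against 30.3% of all genes) and lower in 2 (16.7%), 2 of the 12 having passed through the tumours alone. Abcg1, a sterol exporter, had 219, 246 and 305 in the tumours, against 0, 0.943 and 0 in culture. In the hypoxia and glycolysis list 13 of 26 were higher (50%, against 30.3% of all genes) and 3 lower (11.5%, against 28%). Of these 26, 2 passed through the tumours alone. Vegfa, the vessel growth factor, had 3557, 2760 and 2056 in the tumours, against 952, 1005 and 1085 in culture, and Car9, a carbonic anhydrase of hypoxic tumour cells, had 657, 300 and 286, against 43.5, 48.1 and 62. Slc2a3, a glucose transporter, was lower, at 1105, 576 and 530, against 1792, 2047 and 2164. Of 20 ribosome biogenesis genes 3 were higher and 3 lower, both shares under those of all genes. Of 19 serine synthesis and ATF4 stress genes 8 were lower and 2 higher, and Phgdh, the first enzyme of serine synthesis, had 3903, 2658 and 3019 in the tumours, against 5074, 5178 and 5386 in culture. Of 22 nuclear oxidative phosphorylation genes 6 were higher and 3 lower, near or under the share of all genes on each side. Of the 7 mitochondrially encoded genes tested 4 were higher (57.1%, against 30.3% of all genes). The sum of the mitochondrially encoded genes was highest in the first tumour library, as given above. Glucocorticoid response genes were higher in 5 of 12 cases (41.7%, against 30.3% of all genes) and lower in 2 (16.7%), 2 of the 12 having passed through the tumours alone. Sgk1, a kinase also high in microglia, had 1277, 959 and 903 in the tumours, against 384, 304 and 339 in culture. Ddit4, an inhibitor of mTOR signalling, had 5407, 4839 and 4262, against 11350, 15550 and 16106.

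Immediate early genes are known to rise within minutes of handling. Fos had 1621, 1869 and 1670 in the tumours, against 1699, 1807 and 1860 in culture, and the groups overlapped (log2 difference -0.06 ± 0.08 SE, adjusted p = 0.55, limma). Of 24 such genes 6 were higher (25%, against 30.3% of all genes) and 10 lower (41.7%, against 28%), with a median of -0.09. Sorted GFP+ cells of the same hosts averaged 44338 ± 9903 for Fos, and in the direct comparison 22 of 24 immediate early genes were lower in unsorted tumours than in GFP+ cells (91.7%), against 6.46% of all 15275 genes tested there. In that comparison 10.3% of genes were higher and 16.8% differed in either direction. Of macrophage and microglia genes 19 of 22 were higher in unsorted tumours, of endothelial genes 16 of 18 and of neuronal genes 10 of 14. Few or no genes were higher in the interferon-gamma response list (2 of 28) and in several immune cell lists. These were the T cell (0 of 20), cytotoxic (0 of 10), NK cell (1 of 9), dendritic cell (1 of 11) and monocyte-derived (3 of 16) lists. The first GFP+ library held T cell markers at 3.01% of their GFP- mean, against 0.256% and 0.538% in the second and the third. Sorting and cell composition both differ between unsorted tumours and GFP+ cells and cannot be told apart. Of 13 heat shock genes 9 were lower than in culture (69.2%, against 28% of all genes) and 2 higher (15.4%), 2 of the 13 having passed through the tumours alone. Hsph1, a chaperone, had 2987, 4007 and 3538 in the tumours, against 9425, 7796 and 8049 in culture.

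**Figure D5:**
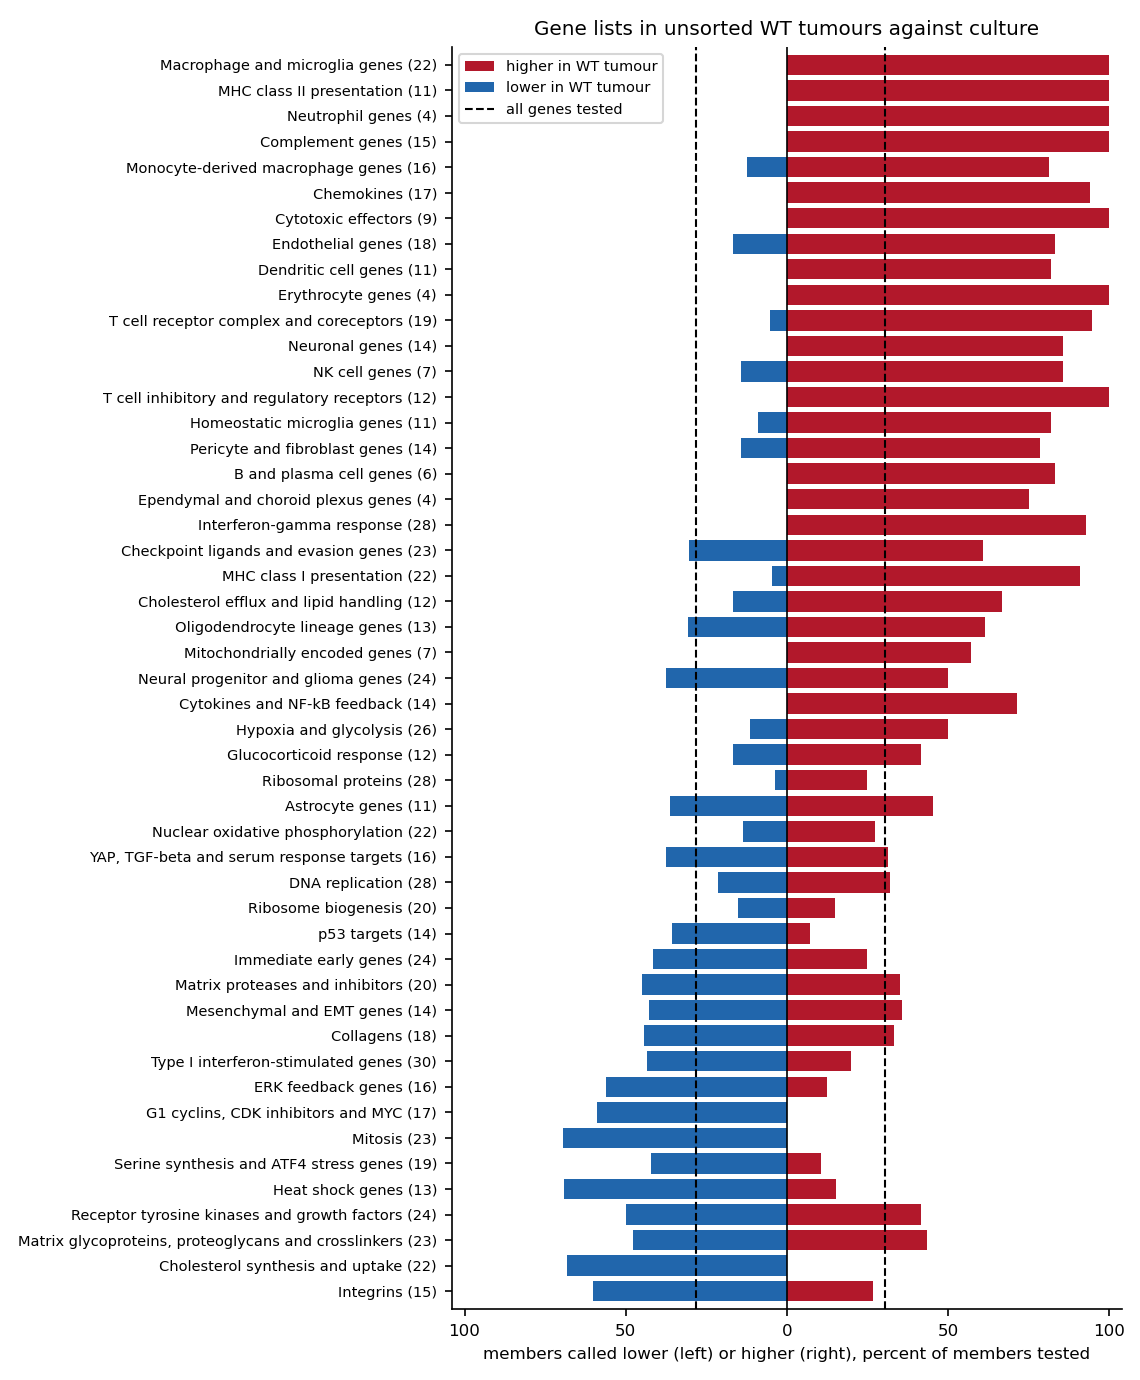
Share of each list's tested members called higher (right) or lower (left) in unsorted WT tumours than in culture, in percent; dashed lines mark the shares over all genes tested, and numbers in brackets are members tested. The macrophage, class II, complement and cytotoxic lists reach 100% on the right, and the cholesterol synthesis, mitosis and integrin lists reach 60% or more on the left.

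Tumours of Pfp/Rag2 -/- hosts, which lack perforin and mature T and B cells, gave the test of whether the tumour levels depend on the host. The direct comparison of unsorted WT with unsorted Pfp/Rag2 -/- tumours shares its WT libraries with the comparison above; 15.1% of 15448 genes were higher and 14.8% lower in WT, 29.9% in all. All 28 interferon-gamma response genes tested were higher in WT tumours, as were all 11 class II and all 22 class I genes, while 14 of 30 type I genes were lower and 3 higher. Gbp4 averaged 6633 ± 1466 in WT and 262 ± 13.8 in Pfp/Rag2 -/- tumours, and 134 ± 12.1 in culture (SD, n = 3 each). Apol6 averaged 1500 ± 398 in WT and 1.21 ± 1.04 in Pfp/Rag2 -/- tumours. Isg15 averaged 2698 ± 228 in WT and 3686 ± 69.3 in Pfp/Rag2 -/- tumours, against 6694 ± 260 in culture, with a log2 difference between hosts of -0.45 (adjusted p = 0.00674, limma). Some cell type markers moved with these lists: all 22 macrophage and microglia genes were higher in WT tumours (median log2 difference 1.77), as were 17 of 19 T cell, 8 of 9 cytotoxic and 14 of 16 complement genes, and none of these was lower. Other cell types did not follow. Of 11 homeostatic microglia genes 4 were higher and 0 lower, and of 18 endothelial genes 4 were higher and 1 lower. Pericyte and fibroblast genes had 2 of 15 higher and 5 lower, oligodendrocyte genes 0 of 13 higher and 5 lower, and neuronal genes 1 of 14 higher and 2 lower. C1qa averaged 5234 ± 479 in WT and 1594 ± 253 in Pfp/Rag2 -/- tumours (log2 difference 1.72, adjusted p = 0.000237). The part of any of these cell types in the interferon and antigen presentation differences was not tested.

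For several genes the difference between hosts did not pass the test. Cldn5 averaged 697 ± 30.7 in WT and 780 ± 217 in Pfp/Rag2 -/- tumours (log2 difference -0.13 ± 0.19 SE, adjusted p = 0.644, limma). Fgfr3 averaged 310 ± 93.5 in WT and 419 ± 129 in Pfp/Rag2 -/- tumours (adjusted p = 0.262), and Ngfr 438 ± 248 and 377 ± 34.7 (adjusted p = 0.94). Kit averaged 5995 ± 1396 and 5499 ± 340 (adjusted p = 0.675). Col6a2 was lower in WT tumours, at 95.7 ± 13.9, against 333 ± 30.7 in Pfp/Rag2 -/- tumours (log2 difference -1.79, adjusted p = 0.00044).

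The filter at 10 cut through a dense range of levels, with 175 genes for which the value ranked at 3 among the 6 lay from 10 to under 11 and 211 from 9 to under 10. Just inside lay Upk1a, with 10.2, 15.3 and 8.71 in the tumours and 10.4, 5.66 and 5.72 in culture. Just outside lay Tstd1, with 14.8, 9.9 and 13.1 in the tumours and 9.45, 2.83 and 7.63 in culture.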

How the data were processed

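RNA-seq libraries of GL261 GFP tumours and cultures were aligned with STAR 2.5.2b to GRCm38 and normalized with DESeq2, per the submitters' processing notes. Neither a read counter nor an annotation release is given in the sources used here. The authors deposited a signal value per gene, which is a read count divided by 1 size factor per library. Each value was a whole multiple of 1 read within 0.05 reads for 100% of values, so reads were recovered and used for floors, counting intervals and count-based alternatives. Floors and intervals cover counting error only. Gene names came from GENCODE vM21, which named 48435 of 48795 identifiers.

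Genes that reached 10 in 3 or more of the 6 libraries were fitted with limma 3.58.1 (R 4.3.3) with an intensity trend on log2 of the normalized count plus 1, two-sided, with Benjamini-Hochberg adjustment over all genes tested. A log2 difference on this scale understates the change of low genes. WT tumours were set against Pfp/Rag2 -/- tumours and against sorted GFP+ cells in the same way. Against cultures with no read, folds were computed against 3 reads per library; with 1 to 3 reads in all, ratios carry exact 95% counting intervals. Shares of the GFP- level used markers that averaged 50 or more in GFP- cells and less than 10% of that in culture. Named genes were first drawn from called genes whose groups did not overlap and that averaged at least 100 in the higher group. From these came the 6 highest and 6 lowest differences, and the 8 highest and 8 lowest among genes with means of at least 100 in both groups. For these genes non-overlap was a condition of choice and not a result. Up to 2 called genes on each side of each list were named as well, with other list members added. The members, the 50 gene lists and the named genes were chosen with earlier results of these data known. The fit was tested on simulated data. Alternatives included edgeR 4.0.16 and DESeq2 1.42.0 on the recovered reads. A few genes are not reported here.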

Additional observations from a re-analysis of the deposited data

Results flagged for a closer look

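For 13 of the genes named here the 2 hosts lay on opposite sides of culture. All 3 unsorted WT tumours stood on one side of all 3 cultures and all 3 unsorted Pfp/Rag2 -/- tumours on the other. The direct limma test also called the hosts at least 2-fold different. The share of all genes tested that met this rule is not given, so the count is a description only. Gbp2 had 13239, 13724 and 13241 in WT and 1465, 1516 and 1373 in Pfp/Rag2 -/- tumours, around 1830, 1763 and 1998 in culture, with a log2 difference between hosts of 3.21. Gbp5, a related GTPase, differed by 2.37, Irgm2 by 1.57, Psme2, a proteasome activator subunit, by 1.59, and Il15, a cytokine for NK and T cells, by 1.04. Thbs1, a matrix glycoprotein of monocytes and other cells, had 750, 794 and 553 in WT and 207, 140 and 112 in Pfp/Rag2 -/- tumours, around 331, 273 and 297 in culture, a difference of 2.22. Ccl5 differed by 2.51, Cfp, the complement activator properdin, by 1.63, Emilin2, a matrix glycoprotein, by 1.42, Mmp19, a matrix protease, by 1.47, and Fabp5, a fatty acid carrier, by 1.13.

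A pair of genes lay the other way. Klf9, a glucocorticoid-induced transcription factor, had 372, 290 and 277 in WT and 1091, 885 and 824 in Pfp/Rag2 -/- tumours, around 620, 669 and 754 in culture, a difference of -1.58. Agt, angiotensinogen, made by astrocytes in brain, had 10.2, 8.1 and 11.3 in WT and 152, 96.9 and 33.4 in Pfp/Rag2 -/- tumours, around 17, 26.4 and 15.3 in culture, a difference of -2.90. The calls of Agt, Fabp5 and Il15 against culture were lost in several alternatives, with adjusted p of 0.0667 for Agt without the filter and, with TMM, 0.0505 for Fabp5 and 0.0525 for Il15. With all 18 libraries in 1 fit the calls against culture were also lost for Ccl5 (adjusted p = 0.13), Emilin2 (0.158), Mmp19 (0.439) and Thbs1 (0.134), and the calls between hosts were lost for Emilin2 (adjusted p = 0.0535) and Mmp19 (0.0958). Groups of 3 libraries are too small for a test of single outlying samples, and none was made.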

How the results depend on the processing

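Higher calls against culture numbered 4576, and 2779 where all 6 libraries had to reach 10, a filter that removes genes absent from culture; lower calls numbered 3978 there, against 4228. Leaving out 1 library at a time gave 3825 to 5109 higher and 3268 to 5033 lower genes. Against Pfp/Rag2 -/- tumours it gave 1297 to 3050 higher (main count 2326; 1297 without the second Pfp/Rag2 -/- library, 1514 without the third WT library) and 983 to 3092 lower (main count 2294; 983, 1396 and 1275 without the second, the first and the third Pfp/Rag2 -/- library). Against GFP+ cells it gave 234 to 1933 higher (main count 1572) and 122 to 1390 lower (main count 987), with the lowest counts without the third WT tumour library (784 and 537 without the second; 642 and 199 without the second GFP+ library; 374 lower without the first). Higher calls against GFP+ cells were 848 with a filter of 50 and 697 with the filter in all libraries, and lower calls were 1590 with all 18 libraries in 1 fit and 1631 with DESeq2. The causes of these shifts were not tested.

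Replicate numbers did not pair the libraries: same-number correlations of deviations from group means were 0.00875, -0.0257 and 0.0114 against culture. With the replicate number as a block, 4385 genes were higher and 4009 lower than in culture, and 606 were lower than in GFP+ cells.

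Upk1a, at 0.60 and not called, had -1.87 with quantile normalization. Uncalled genes near 0 changed sign: Cxcl10 to -0.02 with TMM and -0.13 to 0.10 with 1 library left out (-0.00 without the second culture); Sox2 to 0.24 with quantile normalization, 0.04 with edgeR, 0.05 with DESeq2 and -0.09 to 0.06 with 1 library left out (0.02, 0.06, 0.00 and 0.01 where the sign changed); Fos to 0.09 with quantile normalization. Mmp19, called at 0.61, had -0.18 there. Between hosts, leaving out 1 library gave -0.33 to 0.08 for Cldn5, -0.37 to 0.52 for Ngfr (-0.00 without the third WT library) and -0.07 to 0.27 for Kit. Quantile normalization moved the median of all genes by -0.10 and gave 3929 higher and 5178 lower genes. Over 210 named genes tested against culture and 27 such tests in the other comparisons, 30 results lost their call in at least 1 alternative, 5 of them only with a library left out. The summed endothelial share was 42.8%, against 84.4% as a median. The cause was not tested.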
